A study of Mus musculus with 9 samples.

Results

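The regions described here are 172 regions with MyoD1 CUT and RUN peaks. Their place in the ranking of maximum signal was higher in every +dox library than in every no dox library. They were chosen by measured values. Overlapping or touching CUT and RUN peaks of 6 libraries were merged into 58309 regions, and 4838 regions with a peak in all 6 libraries (shared regions) were kept. In each library a shared region took the highest maximum signal of its peaks, and this was turned into a percentile among the shared regions, where 100 is the strongest. A region was selected on the lowest of its 3 +dox percentiles being above the highest of its 3 no dox percentiles, and is called rising. The mirrored choice gave 215 falling regions. Since every library of the comparison took part in the choice, percentiles and signal of the rising regions are given as a description, with no test.

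CUT and RUN finds where a protein sits on chromatin by bringing a nuclease to it with an antibody and sequencing the DNA that is cut free. All 6 libraries came from C2C12 cells, a mouse myoblast line, in which MyoD1 carried a Flag-Halo tag at its own locus and a doxycycline-inducible Flag-Halo MyoD1 had been added, and the antibody was anti-Flag. The line was a single clone, and both groups carried the tag and the inducible copy. The 3 no dox cultures were placed in low-serum differentiation medium alone, and the 3 +dox cultures received doxycycline (dox) in the same medium for 6 h. Wild type cells, which carry no tag, gave 3 further libraries that were not used here, and the values have no untagged background to be read against. The libraries pool many cells, so more MyoD1 on a site in each cell and more cells with MyoD1 on that site cannot be told apart.

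MyoD1 is a basic helix-loop-helix transcription factor that starts the skeletal muscle program. It binds DNA as a dimer with E-proteins at the E-box CANNTG, most readily where the inner bases give CAGCTG. Id proteins lack a DNA-binding region and hold E-proteins away from such dimers. In myoblasts, Notch and FGF signals act against the muscle program that MyoD1 drives.

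The DNA under the summits is shown for 7 of the rising regions with the widest gap between groups and for the regions at Notch1 and Id1, to let the reader see which held the MyoD1 E-box. Each window is 200 bp long, centred on the median of the 6 summits, from the plus strand of GRCm38 (RefSeq), with CAGCTG and the AP-1 motif TGANTCA in capitals.
Plk5, intergenic, chr10:80368176-80368375: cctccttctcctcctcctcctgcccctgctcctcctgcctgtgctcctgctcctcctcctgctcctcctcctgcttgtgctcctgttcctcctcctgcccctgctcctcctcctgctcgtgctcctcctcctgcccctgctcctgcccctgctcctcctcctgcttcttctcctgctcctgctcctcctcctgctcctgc
Timp2 intron, nearest start site Cep295nl, chr11:118322126-118322325: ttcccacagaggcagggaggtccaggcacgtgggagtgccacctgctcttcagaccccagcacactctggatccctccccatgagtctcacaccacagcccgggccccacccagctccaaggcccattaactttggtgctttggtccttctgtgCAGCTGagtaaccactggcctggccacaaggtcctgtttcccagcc
Sh2b3 intron, chr5:121833938-121834137: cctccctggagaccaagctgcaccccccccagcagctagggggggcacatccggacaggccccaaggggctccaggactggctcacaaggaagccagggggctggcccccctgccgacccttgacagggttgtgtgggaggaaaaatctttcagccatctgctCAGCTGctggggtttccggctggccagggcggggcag
Gse1 intron, chr8:120300626-120300825: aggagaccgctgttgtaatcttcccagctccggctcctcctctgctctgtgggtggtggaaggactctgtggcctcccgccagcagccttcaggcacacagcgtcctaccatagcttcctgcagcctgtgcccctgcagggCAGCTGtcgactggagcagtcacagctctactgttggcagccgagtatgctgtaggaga
Dlg5 intron, chr14:24206901-24207100: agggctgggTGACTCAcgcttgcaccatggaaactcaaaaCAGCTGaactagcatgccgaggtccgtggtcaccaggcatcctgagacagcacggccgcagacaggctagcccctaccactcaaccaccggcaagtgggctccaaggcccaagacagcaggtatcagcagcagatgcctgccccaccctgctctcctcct
Man2a1, intergenic, chr17:64559276-64559475: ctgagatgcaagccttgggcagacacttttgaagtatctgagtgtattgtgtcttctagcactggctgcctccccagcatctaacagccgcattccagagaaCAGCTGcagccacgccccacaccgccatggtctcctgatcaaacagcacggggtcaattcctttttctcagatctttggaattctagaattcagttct
Cdc42bpb intron, chr12:111353526-111353725: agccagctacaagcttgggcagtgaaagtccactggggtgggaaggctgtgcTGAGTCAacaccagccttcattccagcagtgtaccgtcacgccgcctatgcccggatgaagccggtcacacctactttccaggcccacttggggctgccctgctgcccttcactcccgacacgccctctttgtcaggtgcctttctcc
Notch1 intron, chr2:26502301-26502500: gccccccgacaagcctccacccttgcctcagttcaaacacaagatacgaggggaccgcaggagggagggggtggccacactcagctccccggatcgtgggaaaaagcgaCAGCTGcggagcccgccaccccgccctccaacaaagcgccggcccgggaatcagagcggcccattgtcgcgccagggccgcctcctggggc
Id1, upstream, chr2:152735176-152735375: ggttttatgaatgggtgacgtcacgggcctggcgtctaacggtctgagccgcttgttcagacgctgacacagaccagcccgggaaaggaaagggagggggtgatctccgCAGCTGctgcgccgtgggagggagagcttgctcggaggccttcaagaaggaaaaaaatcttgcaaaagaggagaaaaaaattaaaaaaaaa

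The CAGCTG E-box lay in the printed windows at Timp2, Sh2b3, Gse1, Dlg5, Man2a1, Notch1 and Id1, and in none of the letters printed for Plk5 and Cdc42bpb. The Plk5 window, which belonged to the region with the widest gap of all, was a run of short C and T repeats with 0 CANNTG of any kind. Repeated sequence of this sort is hard to place reads in. The Dlg5 window held an AP-1 motif, the site of Fos and Jun dimers, beside its E-box, and the Cdc42bpb window held an AP-1 motif with no CAGCTG but 2 other CANNTG. Among the 12 rising regions with the widest gap, 8 had CAGCTG in the window. Among the 14 rising regions at genes of the lists described below, 6 had it. These counts stand beside 47.7% of all rising and 46.8% of all shared regions, and the share was 37.1% over the 70 rising regions with a gap of at least 5 points.

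The libraries differed in ways that bear on every rank given here. Depth lay between 2868000 and 8030000 alignments, and the lists held between 9389 and 53661 peaks, the most in +dox replicate 3. Both libraries with replicate number 3 were unlike the rest. Their peaks had a median GC content of 52.7% (no dox) and 51.5% (+dox), against 57.9% to 62.1% in the others. Promoter peaks made up 34.6% and 26.5% of their lists, against 52.8% to 62.2%. Over the 4838 shared regions the ranks of no dox replicate 3 were closest to those of +dox replicate 3 (Spearman rho 0.833, a description across regions that are not replicates) and farthest from those of +dox replicate 1 (rho 0.316). Libraries with the same replicate number deviated from their group means together and are set side by side below. The pairing was clear only for number 3, since no dox replicate 1 was closer in rank to +dox replicate 2 (rho 0.864) than to +dox replicate 1 (rho 0.728). Values read in pairs 1 and 2 rest on the replicate numbers of the labels.

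Rising regions made up 3.56% of the shared regions and falling regions 4.44%, so fewer regions separated the groups upwards than downwards. The order turned without +dox replicate 3, with 945 rising and 756 falling regions. No chance level was computed for these counts. When same-numbered libraries were paired, the +dox percentile was above the no dox percentile in all 3 pairs in 892 regions (18.4%) and below it in all 3 pairs in 777 (16.1%). All 172 rising regions are among the 892 by construction. The gap, the distance in percentile points between the lowest +dox and the highest no dox library, had a median of 3.89 points in rising regions with quartiles of 1.88 and 8.08. It reached 5 points in 70 regions and 10 points in 28. In 9 rising regions the gap was wider than the range among the no dox libraries and the range among the +dox libraries. In falling regions the median gap was 3.25 points, and 71 and 23 regions reached 5 and 10 points.

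The choice had a thin edge. The 20 rising regions with the smallest gap had gaps of 0.031 to 0.527 points, and the 20 regions just below the threshold had gaps of -0.31 to 0 points. With 1 alignment fewer in every +dox library and 1 more in every no dox library, 124 of the 172 would still have had a gap. Nearly all alignment counts of the 12 regions with the widest gap were even, and a shift of 2 was not tried. The lowest +dox library was replicate 3 in 110 of the 172 rising regions, replicate 2 in 37 and replicate 1 in 25. The highest no dox library was replicate 1 in 68, replicate 2 in 61 and replicate 3 in 43. Leaving out a single library gave between 221 (without +dox replicate 2) and 945 rising regions.

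The median percentile of the rising regions was 29.4, 29.2 and 24.3 in no dox replicates 1, 2 and 3 and 59.2, 53.3 and 47.9 in +dox replicates 1, 2 and 3. Low no dox and high +dox percentiles are what the choice asked for. The difference within a same-numbered pair had a median of 21.9, 17.0 and 15.2 points for pairs 1, 2 and 3, against 1.21, 0.258 and -0.258 points over all shared regions.

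**Figure D1:**
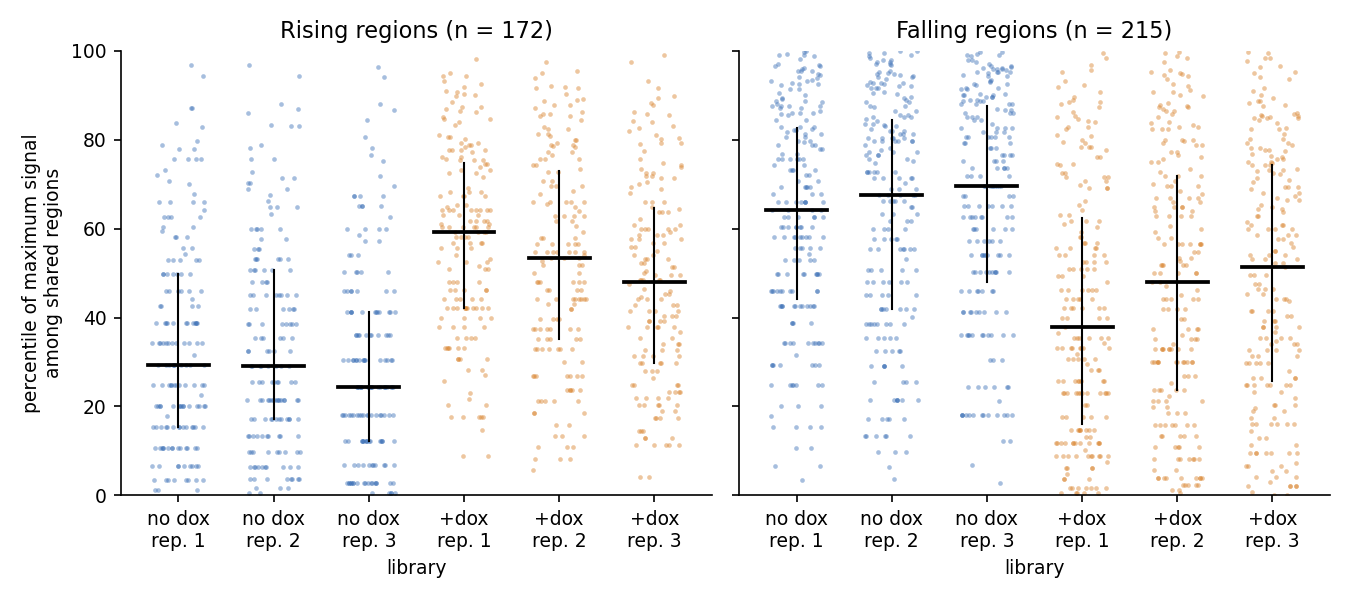
Percentile of maximum signal among the 4838 shared regions (vertical axis) in each of the 6 libraries, for the 172 rising regions (left) and the 215 falling regions (right). Each point is a region, the horizontal bar is the median and the vertical line spans the quartiles. Rising regions have medians of 24.3 to 29.4 in the no dox libraries and of 47.9 to 59.2 in the +dox libraries.

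Signal itself is in CPM, coverage scaled to the number of alignments in a library. At rising regions the median maximum was 5.58, 6.32 and 3.43 CPM in the no dox libraries and 22.3, 16.1 and 10.6 CPM in the +dox libraries. All shared regions moved in the same direction, from 7.91, 9.48 and 5.57 CPM to 17.4, 15.01 and 11.0 CPM. The median log2 difference between group means of log2 CPM was 1.58 for rising and 0.91 for all shared regions, and 0.25 for falling regions, whose quartiles were -0.01 and 0.49. Each of the 172 rising regions had a difference above the 0.91 of the whole, from 0.97 to 2.46. A falling region thus lost rank but in most cases had no lower CPM with dox. The values rest on few alignments: at the maximum of a rising region the median was 16 to 28 alignments in the no dox libraries and 58 to 85 in the +dox libraries.

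Rising regions were spread unevenly over the no dox ranking, which is itself part of the choice. Of the 713 shared regions with a mean no dox percentile under 20, 54 were rising (7.57%), and of the 1224 between 20 and 40, 62 were rising. Between 40 and 60 there were 30, between 60 and 80 there were 21, and of the 811 regions above 80 only 5 were rising (0.617%). Falling regions ran the other way, from 1.40% under 20 to 8.14% above 80. The percentile scale ends at 0 and 100, and the part of its ends and of the choice in this slope was not tested.

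The region with the widest gap lay 11817 bp from the start site of Plk5, a member of the polo-like kinase family, between genes at chr10:80367401-80368900. Its percentiles were 15.3, 17.3 and 6.87 in no dox replicates 1, 2 and 3 and 51.0, 54.8 and 52.3 in +dox replicates 1, 2 and 3. The maximum went from 4.19, 4.97 and 2.14 CPM to 18.1, 16.7 and 11.7 CPM. The groups were apart by 33.7 points, while neither group spread over more than 10.4 points. This is the repeat-like window printed above, and all 6 summits lay at the same place.

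In an intron of Timp2, which encodes an inhibitor of matrix metalloproteinases, the region chr11:118321601-118323300 had percentiles of 34.2, 32.4 and 36.1 without dox and 61.7, 77.2 and 57.7 with dox. Its gap was 21.6 points. The region at Ap3m2, chr8:22806651-22808950, was already high without dox at 52.9, 68.9 and 67.3 and reached 87.3, 85.3 and 87.7 with dox. Ap3m2 encodes a subunit of an adaptor complex for vesicle traffic, and its summit lay in an exon of the non-coding gene 1700041G16Rik. With 156, 140 and 270 alignments in the +dox libraries it was the most deeply covered of these 12 regions. In an intron of Cdc42bpb, a kinase that acts below Cdc42 on the actin skeleton, chr12:111352901-111354300 had percentiles of 20.2, 25.5 and 24.3 without dox and 37.8, 44.1 and 45.2 with dox. Its difference between group means was 19.1 points and fell to 5.56 points, with groups that overlapped, when total signal was ranked in place of the maximum. At these 3 regions, as at Plk5, the gap exceeded the spread within both groups.

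At the other 8 of the 12 regions 1 group or both spread more widely than the gap. In an intron of Sh2b3, an adaptor that dampens cytokine receptor signalling, the no dox percentiles were within 1.199 points of each other (24.8, 25.5 and 24.3) and the +dox percentiles were 67.3, 43.1 and 54.0. At the promoter of Sbno2, a transcriptional coregulator, chr10:80073901-80076100 had 24.8, 21.4 and 24.3 without dox and 76.0, 37.3 and 52.3 with dox, a range of 38.7 points among the +dox libraries. The region in Spire1, which encodes an actin nucleator, had 42.5, 47.9 and 18.03 without dox and 84.0, 75.7 and 65.9 with dox. In these 3 regions +dox replicate 1 was the highest library.

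The lowest mean of the no dox percentiles among the 12 was in an intron of Lama5, a laminin chain of basement membranes, at chr2:180213101-180215950. Its percentiles were 3.39, 6.43 and 0.61 without dox, or 12, 16 and 6 alignments, and 44.3, 21.2 and 20.4 with dox. Its 6 summits were spread over 1925 bp, so the libraries need not show the same binding site. The promoter of Slc38a9, an amino acid transporter of lysosomes, had 6.59, 3.68 and 2.76 without dox and 33.0, 48.0 and 21.9 with dox. Of the remaining regions of the 12, those at Gse1 and Dlg5, a scaffold protein of cell junctions, lay in introns. The region named by Man2a1, a Golgi enzyme of N-glycan processing, was intergenic. Its summit was 41360 bp from the start of Man2a1 and 3716 bp from another annotated start site. Man2a1 had percentiles of 55.6, 55.3 and 41.2 without dox and 78.9, 78.8 and 68.0 with dox, Dlg5 had 29.4, 17.3 and 12.2 and then 42.1, 61.7 and 51.4, and Gse1 had 24.8, 21.4 and 18.03 and then 59.2, 44.1 and 40.3. Ranked by total signal, the Gse1 region had a difference of 12.7 points in place of 26.4 and the groups overlapped. Of all 12 regions, 9 lay more than 1 kb from any annotated start site.

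**Figure D2:**
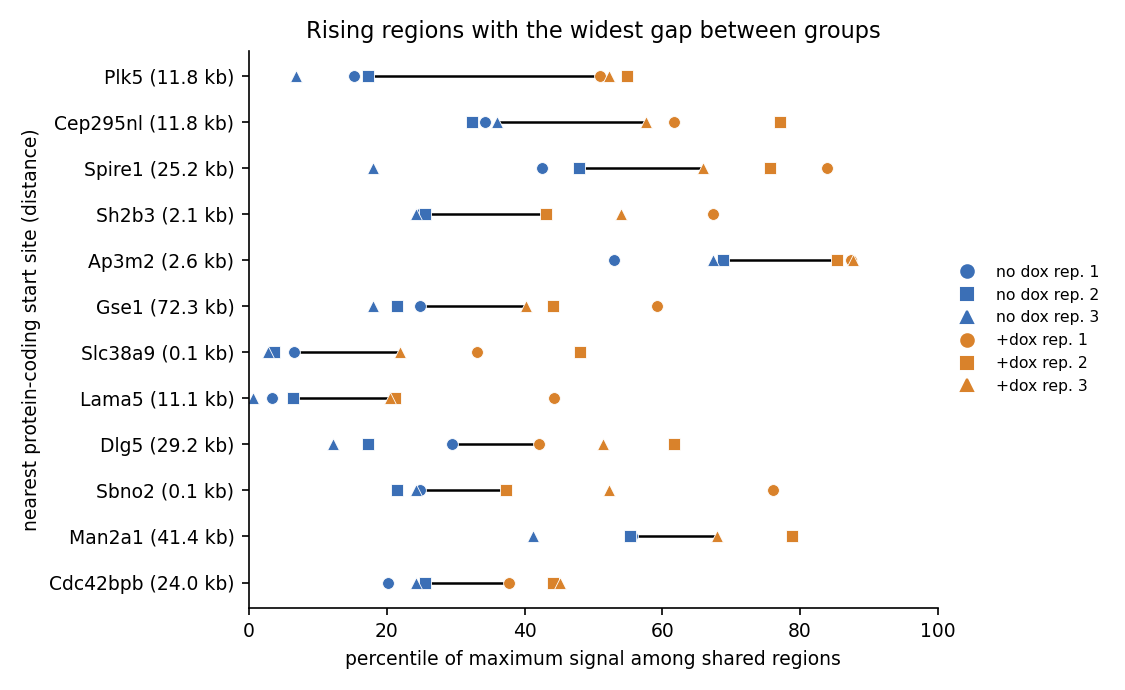
The 12 rising regions with the widest gap, named by the nearest start site of a protein-coding gene and its distance. The horizontal axis is the percentile of maximum signal among shared regions, each symbol is a library and the black line is the gap, which runs from 33.7 points at Plk5 to 12.3 points at Cdc42bpb.

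Genes of the muscle program and its signals were examined as lists. Over 23 lists, 312 shared regions lay in or within 10 kb of a listed gene, and 14 of them were rising (4.49%) and 12 falling (3.85%), against 3.56% and 4.44% of all shared regions. The lists held few shared regions each, and their counts are a description.

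The list of Id and E-protein genes, 1 of the 23, had 3 rising and 0 falling regions among 10. Its median difference in mean percentile was 16.1 points against 0.195 points over all shared regions. That median includes the 3 rising regions and reads the same contrast as the choice, so it is no separate evidence. The lists were made with earlier results of these data known. Id1 and Id3 proteins bind E-proteins and so compete with MyoD1 for its partner. At chr2:152734651-152737100, with the summit less than 1 kb upstream of the Id1 start, the percentiles were 67.8, 75.7 and 54.0 without dox and 94.3, 90.3 and 82.6 with dox. Its maximum went from 11.6, 16.7 and 6.00 CPM to 87.9, 49.5 and 27.2 CPM, and the summit window printed above holds 1 CAGCTG. A second Id1 region, chr2:152728701-152730500, had 20.2, 17.3 and 45.9 without dox and 79.3, 74.3 and 48.5 with dox. There the libraries numbered 3 were 2.55 points apart, while the other pairs were apart by much more, and ranked by total signal the groups overlapped. The Id3 region chr4:136145851-136148700 had 42.5, 38.5 and 24.3 without dox and 76.0, 56.5 and 45.9 with dox.

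The other 7 regions of that list overlapped between groups. In the same-numbered pairs, 5 of all 10 regions on the list were higher with dox in all 3 pairs and 0 were lower in all 3. The 3 rising regions are among these 5 by construction. Over all shared regions the shares were 18.4% and 16.1%. The Id3 promoter was one of the 5, with 67.8, 66.2 and 30.4 without dox and 88.7, 84.1 and 59.3 with dox. At the Id2 promoter replicates 1 and 2 went from 6.59 and 9.73 to 47.9 and 58.0, but replicate 3 went from 24.3 to 12.9. At Tcf4, an E-protein gene, the order was turned in replicates 1 and 2, with 64.2 and 53.1 without dox and 28.2 and 26.8 with dox.

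**Figure D3:**
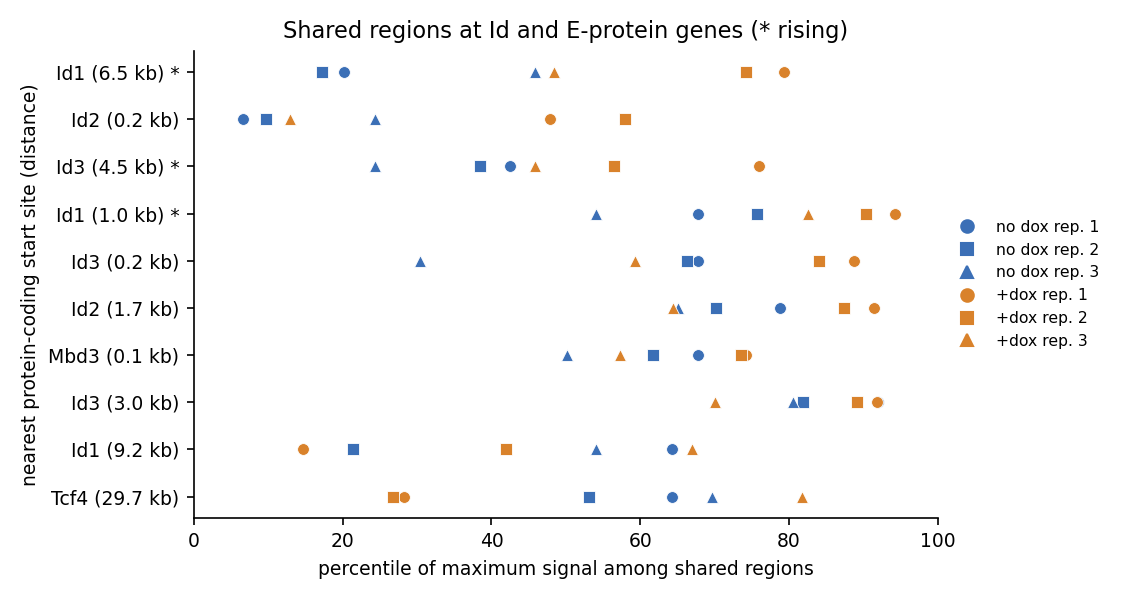
The 10 shared regions in or within 10 kb of Id and E-protein genes, named by the nearest start site of a protein-coding gene and its distance, with rising regions starred. The horizontal axis is the percentile of maximum signal among shared regions and each symbol is a library. The 3 starred regions have every +dox library to the right of every no dox library, and at the Id2 region 1686 bp from its start the libraries numbered 3 lie side by side at 65.0 (no dox) and 64.4 (+dox).

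Among the targets and partners of MyoD1, the Mef2 family had 1 rising region of 3, chr3:88177001-88178650 within 10 kb of Mef2d, a factor that acts with MyoD1 on muscle genes. The summit was 35404 bp from the start of Mef2d and 191 bp from another annotated start site. Its percentiles were 20.2, 38.5 and 30.4 without dox and 46.2, 46.1 and 42.9 with dox. The difference of 15.4 points was 1.19 points when total signal was ranked, and the groups overlapped with total signal, with percentiles among all peaks and within classes of GC content. The myogenic regulatory factors had 2 shared regions, both at Myod1, with 0 rising and 1 falling. The falling one, with its summit in a coding exon 502 bp from the Myod1 start, had percentiles of 96.1, 100 and 96.2 without dox and 95.3, 91.2 and 71.4 with dox. No dox replicate 2 stood far above the other libraries there, at 1324 CPM against 43.5 and 28.7 CPM without dox and 95.2, 52.8 and 18.9 CPM with dox. The second Myod1 region, also in a coding exon, had 365 CPM in that library and 6.86 to 38.4 CPM in the others. The cells also carry an added MyoD1 coding sequence, and DNA from it and from these exons cannot be told apart here. Fusion genes (15 shared regions) and sarcomere genes (20) had 0 rising and 0 falling regions. Over all shared regions 3.56% were rising and 4.44% falling, so 0 in lists this short says little.

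Genes of FGF and Notch signalling were represented by few regions. Spry4 and Spred2 encode inhibitors of the Ras-MAPK pathway below FGF receptors. The promoter of Spry4 had percentiles of 10.5, 21.4 and 6.87 without dox and 37.8, 26.8 and 28.04 with dox. The region upstream of Spred2, chr11:19919601-19921050, had 17.8, 21.4 and 2.76 without dox and 28.2, 48.0 and 23.3 with dox, and held 0 CAGCTG even over its whole width. At both regions the groups overlapped when total signal was ranked. These were 2 of 20 regions on the FGF list, 10 of which were counted through the very long annotated span of Fgfr2, and 1 of those 10, at Htra1, was falling.

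Notch1, a receptor whose activity holds back myogenic differentiation, had a rising region in its intron at chr2:26501551-26504700, which was 1 of 14 on the Notch list. Its percentiles were 34.2, 13.3 and 36.1 without dox and 61.1, 44.1 and 44.1 with dox, and its summits were spread over 1350 bp. The difference turned from 21.9 points to -9.41 points when total signal was ranked in place of the maximum, and within classes of GC content the groups overlapped. Heyl encodes a repressor of the basic helix-loop-helix class that acts below Notch. Its rising region, chr4:123238651-123240900, was weak throughout, with 6.59, 9.73 and 2.76 without dox and 20.4, 10.8 and 28.04 with dox, and was 1 of 13 regions at E-box repressor genes. The gap at Heyl, 1.02 points, was the smallest among the 22 regions named by rule.

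Of the neuromuscular junction list, the promoter of Etv5, an ETS factor, was rising, with 49.7, 45.1 and 24.3 without dox and 68.3, 70.7 and 55.9 with dox. By total signal its groups overlapped. It was 1 of 13 regions, while the promoters of Chrna1, the muscle acetylcholine receptor alpha subunit, and of Erbb3, a neuregulin receptor, were falling. The AP-1 list had 1 rising region of 15, which lay at the promoter of Ccdc85b within 10 kb of Fosl1. It had 24.8, 3.68 and 18.03 without dox and 39.9, 26.8 and 29.7 with dox. With total signal and within classes of GC content its groups overlapped, and the 2 regions nearest the start of Fosl1 itself overlapped between groups.

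The adhesion list, with 31 shared regions the longest, had 0 rising and 4 falling (12.9%), at Cdh13, Itga11, Itga3 and Nectin2. Over all shared regions 3.56% were rising and 4.44% falling. Falling means lost rank, and the median log2 CPM difference of all 215 falling regions was 0.25. In same-numbered pairs 3 of the 31 were higher with dox throughout (9.68%) and 7 lower (22.6%), against 18.4% and 16.1% of all shared regions. The 4 falling regions are among these 7 by construction. The lists of excitation-contraction coupling (Atp2a2, the calcium pump of the sarcoplasmic reticulum), Wnt (Wnt9a), Runx, Tead and Srf factors (Wwtr1, the coactivator TAZ) and collagen genes and enzymes (Loxl1, a lysyl oxidase-like enzyme) had 1 rising region each, of 14, 12, 23 and 21. There were 0 rising regions among 13 for cell cycle exit, 13 for TGF-beta and BMP, 4 for IGF, 24 for chromatin cofactors, 6 for the dystrophin complex, 17 for muscle energy metabolism and 7 for cytosolic ribosomal proteins. In lists this short, counts of 0 are close to the 3.56% over all shared regions.

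Some rising regions were neighbours. There were 8 neighbouring pairs with summits within 50 kb among the 172 rising regions, against 14 pairs among the 215 falling regions. The number to be had from as many shared regions of any kind was not computed, so the count does not show clustering. Those named here were chosen after their values were seen and lay at Id1, at Socs3, a feedback inhibitor of cytokine signalling, at Flrt1, Ass1, Pmepa1 and Prkag2, and between Tmc6 and Syngr2. The regions at Socs3 had gaps of 11.5 and 10.6 points with summits 2250 bp apart. By chromosome, rising regions made up between 0 of 58 shared regions (X) and 19 of 329 (5.78%, chromosome 2), around the 3.56% of the whole.

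The E-box share of rising regions did not differ from that of all shared regions beyond counting error. CAGCTG lay in the summit window of 82 of 172 rising regions, or 47.7% (95% Wilson interval 40.3 to 55.1, counting error only), of 48.4% of falling and of 46.8% of all shared regions. Read at the summit of each library in turn, the share among rising regions was 48.3%, 47.7% and 35.5% in the no dox and 46.5%, 47.1% and 47.7% in the +dox libraries. Any CANNTG was found in 77.9% of rising and 74.7% of all shared windows. Promoter windows held CAGCTG less often than distal ones in both sets, at 36.5% against 58.6% of rising and 34.3% against 62.2% of all shared regions. With CAGCTG searched over the whole region, 85.5% of rising and 85.4% of all shared regions had it. Falling regions had it more often, at 92.56% (88.25 to 95.37).

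Of the other motifs, each read on both strands in the same 200 bp, TGANTCA of AP-1 was in 13.9% of rising and 13.5% of all shared windows, and TGTGGT of RUNX factors in 15.1% and 14.5%. The E-box CAGGTG was in 20.3% and 18.3%, GGAATG of TEAD factors in 13.4% and 11.97%, and CCAAT of NF-Y in 25% and 26.8%. Rising and falling regions parted at GGGCGG, the GC box of SP and KLF factors, which was in 45.3% of rising (38.1 to 52.8) and 27.9% of falling windows (22.3 to 34.3). The value over all shared regions, 44.3%, was within the interval of the rising ones. Over the whole region GGGCGG was in 73.8% of rising (66.8 to 79.8) and 66.05% of falling regions (59.48 to 72.05), with overlapping intervals. CCGGAA of ETS factors was in 11.6% of rising, 6.05% of falling and 10.7% of all shared windows, with overlapping intervals for rising and falling.

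Base composition differed likewise. Windows with a GC content over 60% made up 66.3% of rising (58.9 to 72.9), 42.8% of falling (36.4 to 49.5) and 57.1% of all shared regions (55.7 to 58.5), although the median GC content was 62%, 60% and 61.5%. GC content, here taken over the whole region and not the window, also ran with the libraries. Over shared regions, rho between it and maximum signal was -0.155, -0.195 and -0.407 in the no dox libraries. In the +dox libraries rho was 0.162, -0.099 and -0.465. The part of GC content in the choice of rising regions was read by taking percentiles within 10 classes of whole-region GC content. That gave 208 rising regions, of which 107 were among the 172.

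About as many rising regions lay at promoters (85, or 49.4%, interval 42.0 to 56.8) as farther than 1 kb from any start site (87), while 55.2% of all shared and 41.9% of falling regions were promoters. Of rising regions 23.3% were distal and intergenic (17.6 to 30.1) and 25.6% distal in introns (19.6 to 32.6), against 17.7% and 24.5% of all shared regions and 20.0% and 36.3% of falling regions. The promoter share rested on single libraries. It was 71.0% without +dox replicate 3 and 36.7% without +dox replicate 1. Width, with a median of 1800 bp, was the same in rising and in all shared regions.

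**Figure D4:**
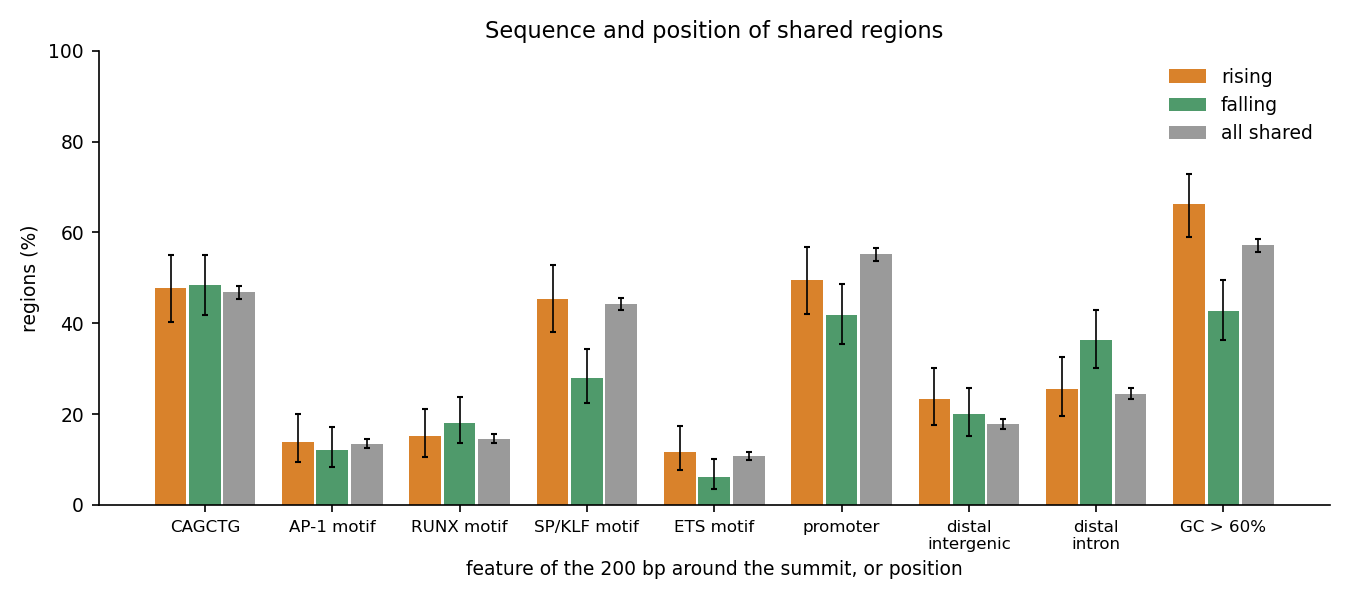
Share of regions (vertical axis, percent) with each motif or position, for 172 rising, 215 falling and 4838 shared regions. Error bars are 95% Wilson intervals. The bars for CAGCTG are level at 47.7%, 48.4% and 46.8%, and the rising and falling bars are apart at the SP/KLF motif and at GC content over 60%.

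To read the choice in libraries it had not used, regions were chosen from 4 libraries and looked up in the other 2, for each of the 9 pairs of 1 no dox and 1 +dox library. In 5 of the 9 pairs the chosen regions were higher in the held-out +dox library more often than all shared regions were. The difference averaged -0.90 ± 13.0 percentage points (SD over 9 pairs that share libraries), with a range of -23.2 to 15.1. In the 3 held-out pairs with the same replicate number the chosen regions were above all shared regions by 2.53, 15.1 and 6.68 points. In the 6 pairs with different numbers the mean was -5.41 points, and the chosen regions were above in 2. For falling regions, chosen and read in mirror image, 6 of 9 pairs were above.

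**Figure D5:**
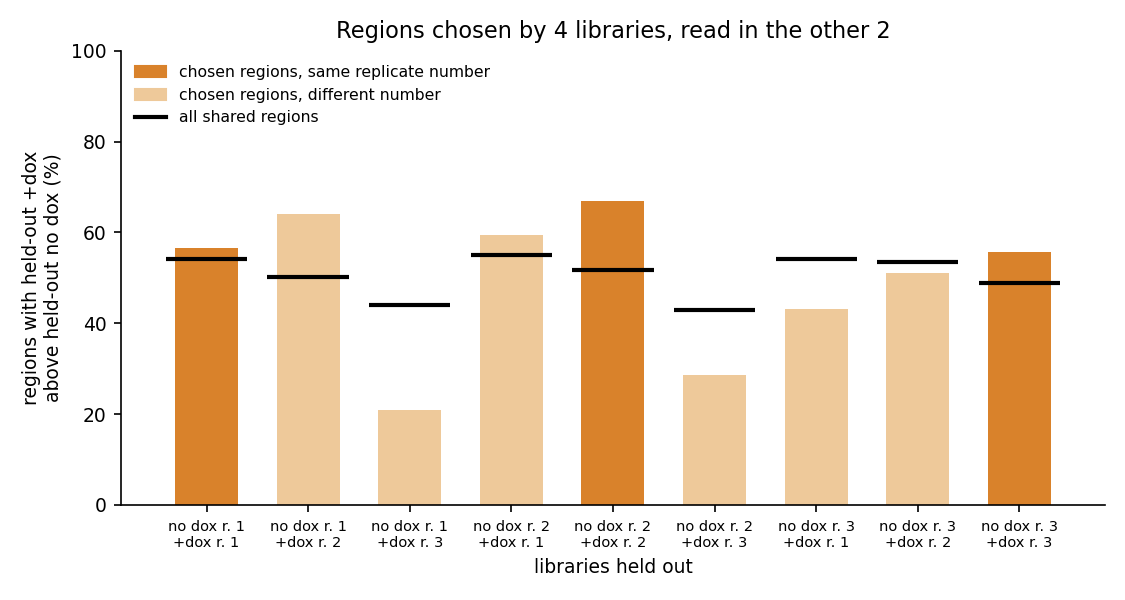
Regions chosen as rising from 4 libraries and read in the 2 held-out libraries named under each bar. The vertical axis is the percentage of chosen regions whose held-out +dox percentile was above the held-out no dox percentile, and the black line is the same percentage over all shared regions. Bars lie above the line in 5 of 9 pairs and in the 3 darker bars, where the held-out libraries have the same replicate number.

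The same reading within pairs, added after same-numbered libraries were seen to deviate together, used regions that were higher with dox in 2 same-numbered pairs. In the third pair they were higher in 64.4% of 1385 regions when pair 1 was held out, in 69.4% of 1286 for pair 2 and in 54.1% of 1649 for pair 3. Over all shared regions the shares were 54.1%, 51.7% and 48.9%. Falling regions chosen likewise were lower in 57.7%, 68.4% and 56.9%, against 45.9%, 48.2% and 51.0%. In each held-out pair the chosen regions were thus above all shared regions, in the rising and in the falling direction. The regions counted as higher were the same 892 in each reading, and those counted as lower the same 777. The 3 readings are therefore not separate from each other. The pairing was taken from these same data, so this is a description. It does not replace the reading over 9 pairs, which averaged -0.90 points for rising regions.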

How the data were processed

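CUT and RUN peaks of 6 libraries (3 no dox, 3 +dox) were analysed. The authors processed reads with the nf-core/cutandrun pipeline on mm10, scaled coverage to CPM, left out blacklisted regions and called peaks in each library with SEACR in relaxed mode. Each deposited list gives an interval with its total and maximum signal, which is coverage in CPM. CPM has no spike-in scale, so ranks within a library were compared.

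Maximum signals were whole multiples of 1 step in 100% of peaks (tolerance 0.05 of a step), and the step gave each library's alignments, between 2868000 and 8030000. Intervals and percentages cover counting error only. Sequence and positions came from GRCm38 and GENCODE M21, with promoters within 1 kb of a start site and summits taken as the median of the 6 summits. Shares have 95% Wilson intervals. No significance test was run, because the choice of regions used the contrast. Replicates are separate samples by their labels. Same-numbered libraries deviated together, with correlations of 0.425, 0.271 and 0.608 over 4838 regions, and so were treated as pairs. Differently numbered libraries gave -0.53 to 0.289, the highest for no dox replicate 1 with +dox replicate 2. That value is above the 0.271 of number 2, so the pairing of numbers 1 and 2 is not clear. Regions and gene lists were chosen with earlier results of these data known. Regions named by rule are the 12 with the widest gap and the rising regions at genes of 13 of the 23 lists. The result of 1 list and the place of 1 neighbouring pair are not reported here. The code that builds, ranks and chooses regions was checked on simulated lists with planted regions. Alternatives left out libraries, regions or low counts, and changed the measure, the percentile and the gap. Computation was done in Python 3.11.15 with pandas 2.3.3, NumPy 2.4.6, SciPy 1.17.1 and matplotlib 3.10.9.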

Additional observations from a re-analysis of the deposited data

How the results depend on the processing

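The number of rising and falling regions moved with most choices. It was 1111 and 2 when percentiles were taken among all peaks of a library, 70 and 71 with a gap of at least 5 points, 28 and 23 with at least 10 points, 1196 and 978 with replicates 1 and 2 only, and 892 and 777 with the replicate block. Leaving out 1 library gave 221 to 945 rising and 327 to 756 falling regions, the most without +dox replicate 3, and with shared regions rebuilt. Rebuilt, rising and falling regions numbered 443 and 522 without no dox replicate 1, 337 and 349 without no dox replicate 2, 476 and 530 without no dox replicate 3, 311 and 431 without +dox replicate 1, 214 and 323 without +dox replicate 2 and 943 and 760 without +dox replicate 3. Fewer libraries make the choice easier by construction. Counts within 1.5 times came from total signal (130 and 216, with 57 and 88 of the same regions), median-centred log2 CPM (163 and 250), regions over 5 kb left out (169 and 207), regions under 10 alignments left out (158 and 204) and percentiles within 10 classes of GC content (208 and 252, added after seeing the data). Among these settings, rising outnumbered falling regions with all peaks, a gap of 10 points, replicates 1 and 2, the block, and without +dox replicate 3.

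The CAGCTG share of rising regions was 57.7% with total signal, 37.1% with a gap of at least 5 points, 85.5% over the whole region and 77.9% for any CANNTG. Leaving out 1 library gave 43.4% to 53.6%. The promoter share was 38.5% with total signal and 36.7% to 71.0% with 1 library left out. The median GC content of rising regions was 53.9% over the whole region, against 54.2% in all shared regions. In summit windows it was 59.5% to 65.5% with 1 library left out. The mean held-out difference turned from -0.90 to 0.94 points with a gap of at least 5 points and was -4.71 points with total signal, where 4 of 9 pairs were above. The cause was not tested. Of the named regions, Notch1 turned to -9.41 points with total signal. The groups stayed apart in 13 of the 22 with total signal, 19 with all peaks and 16 within GC classes. The 22 were chosen for groups that were apart. These settings called 130, 1111 and 208 of all 4838 shared regions rising. With all peaks only 2 regions were falling, so staying apart there says little about a single region. Depth limits the ranks, since a median of 16 to 28 alignments stood behind a rising region without dox.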
